A study of Mus musculus with 6 samples.

Results

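The 10 neutral amino acid transporter genes Slc3a2, Slc7a5, Slc7a8, Slc7a6, Slc43a1, Slc43a2, Slc1a5, Slc38a1, Slc38a2 and Slc25a44 were followed in mouse blood stem and progenitor cells. They were chosen by name for their function, with earlier results of these data known, out of 55487 genes in the count tables. Each symbol matched 1 Ensembl gene. RNA came from 3 BrmKO and 3 WT mice, on a strain background that the labels give as C56Bl/6, with age and sex not stated. The BrmKO mice lack Brm, now called Smarca2, which uses ATP to move nucleosomes as the motor of a SWI/SNF complex, and the labels do not say how the allele was made. The cells were lineage-depleted marrow sorted as lineage negative, CKIT+ and SCA1+ (LSK), a fraction that mixes stem cells with multipotent progenitors. Both genotypes went through the same sort and the same low-input, polyadenylated RNA library kit, which does not mark the strand. In such bulk samples, fewer cells of a type and less RNA per cell cannot be told apart.

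Leucine, isoleucine, valine and the other large neutral amino acids cannot cross a membrane unaided. LAT1 and LAT2, encoded by Slc7a5 and Slc7a8, exchange them across the plasma membrane and reach it only when bound to the heavy chain 4F2hc, encoded by Slc3a2. LAT3 and LAT4, encoded by Slc43a1 and Slc43a2, carry them without exchange and without a heavy chain. ASCT2, SNAT1 and SNAT2, encoded by Slc1a5, Slc38a1 and Slc38a2, bring in glutamine and other small neutral amino acids with sodium, and glutamine can then leave the cell in exchange for leucine. Slc25a44 encodes the carrier of branched-chain amino acids into mitochondria. Leucine that enters is sensed by mTORC1, and blood stem cells in mice are known to depend on dietary valine.

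Smarca2, the gene that was inactivated, had 805, 761 and 958 reads in the BrmKO libraries and 6284, 6932 and 4270 reads in the WT libraries, so all 6 libraries stood with their labels (27.1 ± 0.691 CPM in BrmKO and 179 ± 31.9 CPM in WT, log2 fold change -2.72 ± 0.13, edgeR adjusted p = 2.973e-05). CPM is the count scaled to library size. Reads in genes numbered 29184342 to 33288221 in BrmKO and 28013994 to 36457027 in WT libraries. Kit, a marker of the sort, lay at 949 to 1004 CPM in BrmKO and 849 to 1031 CPM in WT. Ly6a, which encodes SCA1, lay at 26.0 to 35.7 CPM in BrmKO and 18.7 to 31.1 CPM in WT. The T cell marker Cd3e had 0 reads in all 6 libraries, where 3 reads would be 0.0823 to 0.107 CPM, and the neutrophil marker Ly6g had at most 0.116 CPM. Other markers of those cells were detected, among them Cd4 at 4.71 to 5.45 CPM in BrmKO and 3.78 to 4.25 CPM in WT, and S100a9 at 1.61 to 5.55 CPM in BrmKO and 1.35 to 7.98 CPM in WT. On the first principal component (28.9% of the variance) the genotypes were apart, with BrmKO libraries at 14 to 37.9 and WT libraries at -48.3 to -11.6. Replicate 3 of either genotype stood apart on the second principal component (25% of the variance) and had the most reads outside genes, 9.29% in BrmKO and 8.41% in WT, against 5.79% to 6.61% in the other 4 libraries.

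None of the 10 transporter genes passed the test between the genotypes (0 of 10 past an adjusted p of 0.05, edgeR quasi-likelihood test with Benjamini-Hochberg adjustment over 15691 tested genes, of which 0.14% passed, 0.0829% higher and 0.0574% lower in BrmKO). At an unadjusted p under 0.05, 2 of the 10 stood out, Slc43a1 and Slc43a2, where 5.85% of all tested genes did. Only Slc43a1 did so once WT replicate 1 or BrmKO replicate 1 was dropped, and only Slc43a2 once BrmKO replicate 2 was dropped, while dropping WT replicate 3 added Slc1a5 and made 3. All 10 passed the filter on low counts, with 844 to 13457 reads per gene and library. Their log2 fold changes, BrmKO over WT, ran from -0.23 to 0.27 with a median of -0.05, beside a median of -0.01 over all tested genes. Of the 10, 4 lay above 0 and 6 below. The 95% interval of the difference stayed within a 1.5-fold change either way for all 10 genes, as it did for 54.7% of all tested genes. No transporter gene passed under any of the 12 other settings tried, where the lowest adjusted p was 0.307. The whole-table count of 22 was less stable and came to 141 with DESeq2. Leaving out 1 WT library gave 7 genes (replicate 1 out), 6 genes (replicate 2 out) or 36 genes (replicate 3 out), and leaving out BrmKO replicate 1 gave 9.

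**Figure D1:**
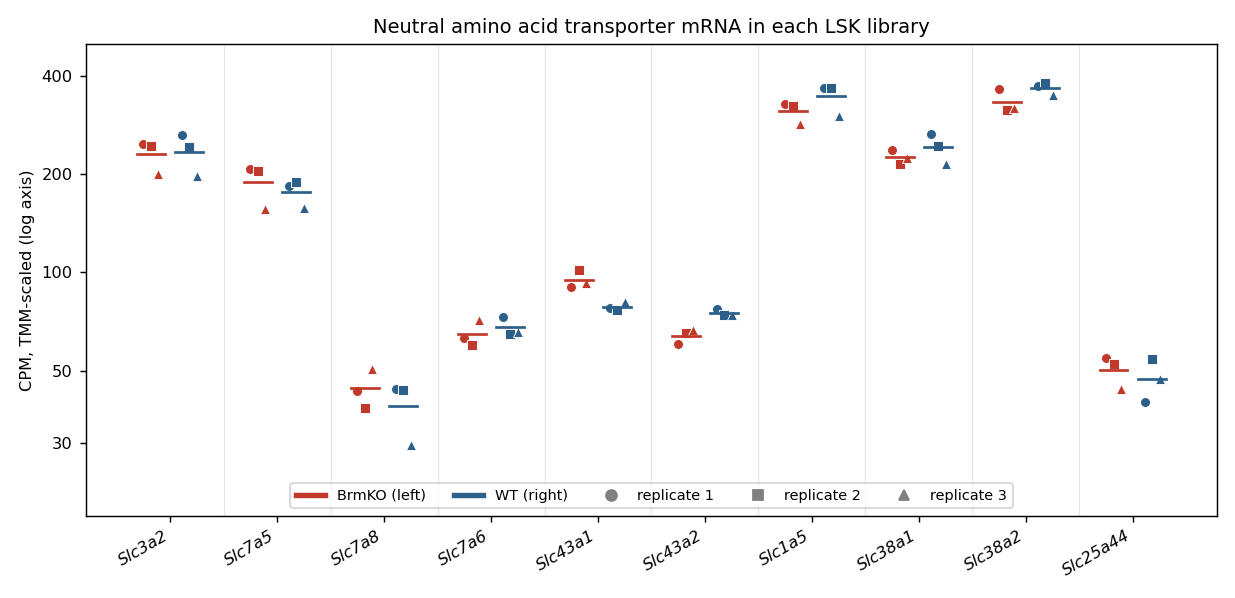
CPM on TMM-scaled library sizes (log axis) of each transporter gene in each library, with BrmKO left of WT, marker shape for the replicate number and a line at the group mean. The groups overlap for 8 genes and are apart for Slc43a1, where BrmKO is higher, and Slc43a2, where BrmKO is lower.

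**Figure D2:**
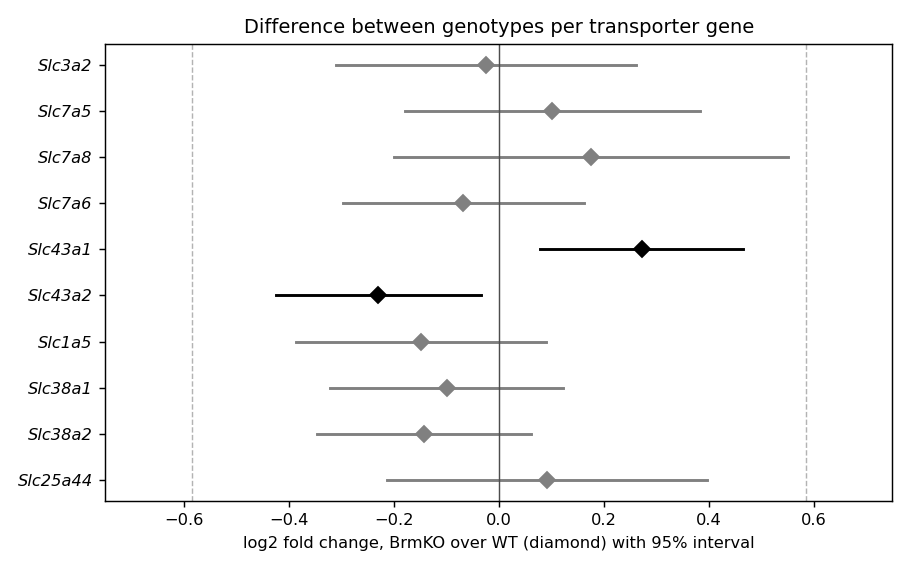
Log2 fold change of each transporter gene, BrmKO over WT, as a diamond with its 95% interval, and dashed lines at a 1.5-fold change either way. Every interval lies between -0.42 and 0.55, and only those of Slc43a1 and Slc43a2, in black, leave out 0, before any adjustment for the number of genes tested.

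The heterodimeric exchangers were examined first. Slc3a2 (chromosome 19, 8706882 to 8723369, minus strand of GRCm38), the heavy chain, had 247, 243 and 200 CPM in BrmKO libraries against 263, 242 and 197 CPM in WT libraries. The groups overlapped almost completely, and the lowest value of each was in replicate 3. Its means were 230 ± 26.1 CPM in BrmKO and 234 ± 33.8 CPM in WT (SD, n = 3 each), a log2 fold change of -0.02 ± 0.13 (SE, edgeR adjusted p = 0.999). Slc7a5 (chromosome 8, 121881150 to 121907694, minus strand), the LAT1 light chain and the main leucine exchanger of dividing cells, had 207, 204 and 157 CPM in BrmKO against 184, 189 and 157 CPM in WT. Replicates 1 and 2 of BrmKO were above all WT libraries, and BrmKO replicate 3 was level with WT replicate 3. The log2 fold change was 0.10 ± 0.13 (edgeR adjusted p = 0.999), with a 95% interval from 0.883-fold to 1.30-fold.

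Slc7a8 (chromosome 14, 54722209 to 54781946, minus strand), the LAT2 light chain, best known from epithelia, was the least even of the 10 in WT, though not in BrmKO. It had 43.4, 38.4 and 50.6 CPM in BrmKO against 43.9, 43.6 and 29.7 CPM in WT. Replicate 3 was the highest library of BrmKO and the lowest of WT, so the log2 fold change of 0.18 ± 0.17 (edgeR adjusted p = 0.999) rested on those libraries and was -0.10 without both. Slc7a6 (chromosome 8, 106168857 to 106198706, plus strand) encodes y+LAT2, which exchanges neutral amino acids with sodium for basic ones. It had 62.8, 59.9 and 71.6 CPM in BrmKO against 73.0, 64.7 and 65.8 CPM in WT, with overlapping groups and a log2 fold change of -0.07 ± 0.10 (edgeR adjusted p = 0.999).

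The light chains were then set against the heavy chain, as levels per kb of annotated exon. For each unit of Slc3a2 there was 0.798, 0.8001 and 0.746 of Slc7a5 in BrmKO libraries against 0.665, 0.742 and 0.759 in WT libraries. These ratios overlapped, with WT replicate 1 lowest. Their size depends on the length used: per kb of the longest transcript their means were lower, at 0.657 in BrmKO and 0.607 in WT. With Slc7a7, Slc7a10 and Slc7a11, the other light chains of 4F2hc, added to Slc7a5, Slc7a6 and Slc7a8, the summed light chains came to 1.17 ± 0.0571 of Slc3a2 in BrmKO and 1.09 ± 0.0639 in WT (SD, n = 3 each). Slc7a5 made up 60.4% to 70.8% of that sum in BrmKO and 65.3% to 67.5% in WT. Slc7a10, a small neutral amino acid exchanger, had 0 reads in every library, and Slc7a11, the cystine exchanger, had 0.465 to 1.30 CPM in BrmKO and 0.359 to 1.69 CPM in WT. Per kb, Slc7a5 was the leading light chain mRNA in all 6 libraries.

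The facilitated carriers LAT3 and LAT4 were the pair whose libraries separated by genotype, in opposite directions and without passing the test. Slc43a1 (chromosome 2, 84838850 to 84863594, plus strand), which encodes LAT3, had 90.2, 102 and 92.7 CPM in BrmKO libraries against 77.8, 76.6 and 81.1 CPM in WT libraries. Every BrmKO library was above every WT library, by a log2 fold change of 0.27 ± 0.09 (edgeR adjusted p = 0.603, and 0.307 to 0.9999 over the other settings). Slc43a2 (chromosome 11, 75531694 to 75577575, plus strand), which encodes LAT4, had 60.3, 65.3 and 66.6 CPM in BrmKO libraries against 77.0, 74.1 and 74.3 CPM in WT libraries. Here every BrmKO library was below every WT library, by a log2 fold change of -0.23 ± 0.09 (edgeR adjusted p = 0.751, and 0.396 to 0.9999 over the other settings). Groups that did not overlap were found in 2 of the 10 transporter genes and in 11.1% of all tested genes. BrmKO was the higher group in 1 of the 10 (5.69% of all tested genes) and the lower group in 1 of the 10 (5.37%).

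Within a library, the ratio of Slc43a1 to Slc43a2 CPM does not depend on how libraries are scaled. It was 1.495, 1.56 and 1.39 in BrmKO against 1.01, 1.03 and 1.09 in WT, apart by genotype. That pair was picked for its values, so the ratio is given as a description. The summed level of both genes was 159 ± 8.18 CPM in BrmKO and 154 ± 2.58 CPM in WT (SD, n = 3 each), with overlapping libraries. An antisense gene, Gm45606, covers 9.18% of the exon bases of Slc43a2, and without strand the reads of that stretch cannot be told apart between them. Gm45606 stood at 8.23 ± 1.04 CPM in BrmKO and 7.33 ± 0.757 CPM in WT (log2 fold change 0.17 ± 0.19, edgeR adjusted p = 0.999).

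**Figure D3:**
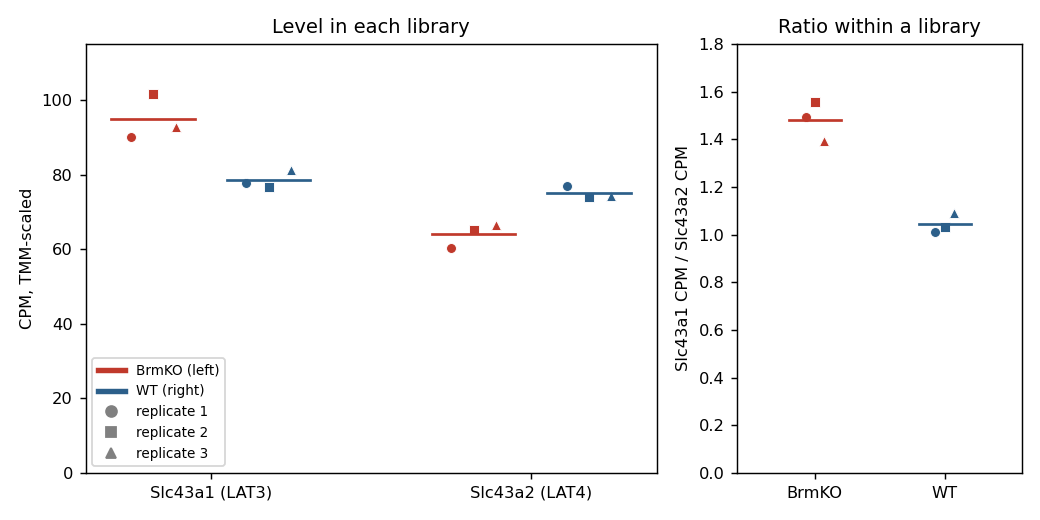
Left, CPM of Slc43a1 and Slc43a2 in each library, with BrmKO left of WT and a line at the group mean; right, the ratio of the 2 genes within each library. The ratio lies between 1.39 and 1.56 in BrmKO and between 1.01 and 1.09 in WT.

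Since Slc43a1 and Slc43a2 carried the difference in ratio, the windows at their RefSeq start sites (250 bases before to 50 after, 5′ to 3′ on the gene's strand, GRCm38.p6) are shown. Capitals mark matches, on either strand, to 4 motifs, the CCAAT box (CCAAT), the GC box (GGGCGG), the E-box (CACGTG) and the TATA box (TATAAA), and no match in these windows overlaps another. The Slc43a1 window is chr2:84840073-84840372 on the plus strand, and the Slc43a2 windows are chr11:75531444-75531743 and chr11:75531862-75532161 on the plus strand.
Slc43a1: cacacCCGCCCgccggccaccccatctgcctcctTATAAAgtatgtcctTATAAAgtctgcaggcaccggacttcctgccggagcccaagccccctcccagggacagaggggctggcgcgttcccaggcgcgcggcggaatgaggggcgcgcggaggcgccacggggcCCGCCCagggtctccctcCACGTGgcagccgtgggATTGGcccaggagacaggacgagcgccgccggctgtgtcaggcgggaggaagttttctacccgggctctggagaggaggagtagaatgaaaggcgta
Slc43a2, upstream start: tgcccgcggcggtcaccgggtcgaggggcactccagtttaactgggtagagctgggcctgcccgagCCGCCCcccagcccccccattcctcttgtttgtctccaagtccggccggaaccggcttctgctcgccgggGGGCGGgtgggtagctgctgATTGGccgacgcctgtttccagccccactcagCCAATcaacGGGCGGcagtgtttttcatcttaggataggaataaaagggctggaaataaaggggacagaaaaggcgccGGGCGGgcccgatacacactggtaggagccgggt
Slc43a2, downstream start: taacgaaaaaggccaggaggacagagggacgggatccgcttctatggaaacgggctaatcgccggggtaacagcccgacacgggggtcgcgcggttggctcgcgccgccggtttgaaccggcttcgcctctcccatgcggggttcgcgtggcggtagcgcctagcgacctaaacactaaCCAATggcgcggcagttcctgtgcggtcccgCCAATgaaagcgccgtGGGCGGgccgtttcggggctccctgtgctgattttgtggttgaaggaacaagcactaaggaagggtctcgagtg
Windows were found for 6 of the 10 genes, 8 in all, with those of Slc7a6 and of Slc43a2 counted as 2 each and the 2 of Slc7a6 overlapping. A CCAAT box was in 3 of the 8, the windows shown, which is a share close to the 37.4% of 32851 mouse windows of that length. The E-box, the core bound by MYC and its relatives, was in the Slc43a1 window (7.15% of all windows). The letters of the TATA box were there as 2 copies (13.6% of all windows), both near the upstream end of the window and far from the start site. A GC box was in all 8 windows of the 6 transporter genes that had one, and in 35.7% of all windows. The overlapping windows of Slc7a6 share theirs. The 8 windows were 56.0% to 76.7% G and C, against a median of 52.7% over all windows, and the 35.7% was not matched for this. All 8 windows held 15 to 42 CpG dinucleotides, against a median of 7 over all windows. The core of the amino acid response element (TGATGNAA), which ATF4 binds when amino acids run short, was in 0 of the 8 windows and in 3.97% of all windows. At so low a share, 0 of 8 windows does not show that these genes lack the element, and Slc7a5, Slc1a5, Slc38a1 and Slc25a44 had no window. A match, or the lack of one, describes only these letters in this stretch.

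Each of the 3 sodium-dependent carriers of glutamine and small neutral amino acids had a lower mean in BrmKO than in WT, and none passed. Slc1a5 (chromosome 7, 16781340 to 16798274, plus strand), which encodes ASCT2, had 326, 324 and 284 CPM in BrmKO against 367, 367 and 302 CPM in WT. Within each genotype replicate 3 was lowest, and the groups overlapped through WT replicate 3 (log2 fold change -0.15 ± 0.11, edgeR adjusted p = 0.998). Slc38a1 (chromosome 15, 96571418 to 96642913, minus strand), which encodes SNAT1, had 237, 215 and 224 CPM in BrmKO against 266, 243 and 215 CPM in WT, again overlapping through WT replicate 3 (-0.10 ± 0.10, edgeR adjusted p = 0.999). Slc38a2 (chromosome 15, 96687392 to 96699730, minus strand) encodes SNAT2, which cells raise when amino acids are short. It had 364, 315 and 318 CPM in BrmKO against 372, 379 and 349 CPM in WT, and BrmKO replicate 1 lay inside the WT range (-0.14 ± 0.09, edgeR adjusted p = 0.969).

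Slc25a44 (chromosome 3, 88410498 to 88425139, minus strand), the mitochondrial branched-chain amino acid carrier, had 54.7, 52.4 and 43.9 CPM in BrmKO against 40.2, 54.4 and 46.97 CPM in WT. The groups covered almost the same range, with a log2 fold change of 0.09 ± 0.14 (edgeR adjusted p = 0.999) and a 95% interval from 0.863-fold to 1.32-fold. Within 1 Mb of it, 63 other genes were tested, of which 4 had an unadjusted p under 0.05 (5.85% of all tested genes did) and 0 passed. Around the other 9 transporter genes 9 to 59 neighbours were tested within 1 Mb, of which 0 to 4 had an unadjusted p under 0.05 and 0 passed. No transporter gene had a near-identical copy elsewhere among annotated transcripts.

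Levels were compared between the 10 mRNAs per kb of annotated exon. In BrmKO the order was Slc1a5 at 74.7 ± 5.67, Slc3a2 at 65.2 ± 7.40, Slc7a5 at 51.1 ± 7.65 and Slc38a2 at 37.6 ± 3.11 CPM per kb (SD, n = 3). In WT the same 4 genes led in the same order, at 82.8 ± 9.06, 66.3 ± 9.57, 47.6 ± 4.62 and 41.5 ± 1.795 CPM per kb. The ranges of Slc1a5 and Slc3a2 overlapped in both genotypes, and those of Slc7a5 and Slc38a2 overlapped in WT. A gap followed, after which Slc43a1, Slc7a6, Slc25a44 and Slc38a1 lay between 13.1 and 16.6 CPM per kb in BrmKO and between 13.2 and 14.9 CPM per kb in WT. In WT these 4 overlapped with their neighbours, whereas in BrmKO Slc43a1 stood above the other 3 in every library. That contrast was absent per kb of the longest transcript. There Slc43a1 ranked 6 of 10 in every library of both genotypes, below Slc38a1 and above Slc7a6. Slc7a8 and Slc43a2 were lowest, at 8.82 ± 1.23 and 6.38 ± 0.329 CPM per kb in BrmKO, where their ranges were apart, and at 7.80 ± 1.62 and 7.48 ± 0.163 CPM per kb in WT, where they overlapped. Over both genotypes, Slc1a5 was higher per kb than 95.9% of tested genes and Slc43a2 than 55.9%, so all 10 were expressed in the upper part of the tested genes. The place of Slc38a1 depends on its length, since its annotated exons add to 17236 bases and its longest transcript to 7266, and per kb of the longest transcript it came to 31.0 CPM in BrmKO and 33.2 CPM in WT, the fifth of 10. That length also put Slc38a2 above Slc7a5, at 54.3 and 53.9 CPM per kb in BrmKO, where their ranges overlapped, and at 59.9 and 50.2 CPM per kb in WT, where they were apart. In WT it put Slc43a2 above Slc7a8, at 10.5 and 9.56 CPM per kb with overlapping ranges.

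**Figure D4:**
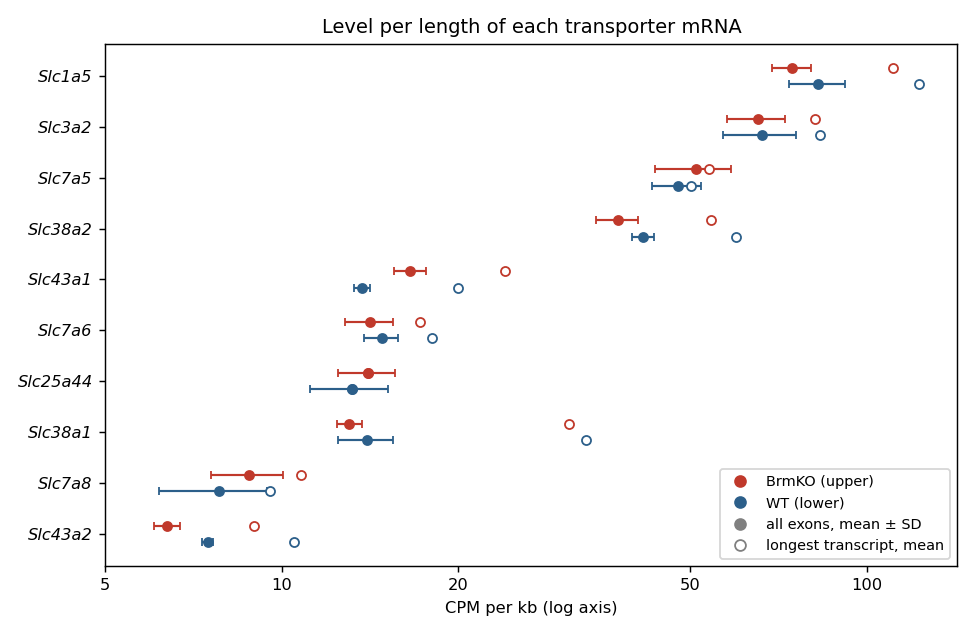
Mean CPM per kb (log axis) of each transporter mRNA, with BrmKO above WT; filled points use all annotated exons, with the SD over 3 libraries, and open points the longest transcript. Slc1a5, Slc3a2, Slc7a5 and Slc38a2 lead in both genotypes on all exons, and with the shorter length Slc38a1 moves up and Slc38a2 passes Slc7a5.

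Spread between libraries differed among the 10 genes. The coefficient of variation within a genotype ran from 2.18% for Slc43a2 in WT to 20.8% for Slc7a8 in WT. Slc3a2, Slc7a5 and Slc1a5 were each lowest in replicate 3 of both genotypes. That pattern was seen in 3 of the 10 genes and in 22.0% of all tested genes. In BrmKO, the mean of replicates 1 and 2 was 1.23, 1.31 and 1.14 times replicate 3 for Slc3a2, Slc7a5 and Slc1a5, and in WT it was 1.28, 1.19 and 1.22 times replicate 3. Replicate 3 had the most reads outside genes in both genotypes, and its part in these levels was not tested. Atf4 encodes the factor that switches on several of these carriers when amino acids are short. It was among the 22.0% of tested genes lowest in replicate 3 of both genotypes. Its levels were 323, 249 and 200 CPM in BrmKO against 262, 281 and 165 CPM in WT. ATF4 target genes did not all share that pattern, and Asns was lowest in replicate 1 of both genotypes. The part of Atf4 in these levels was not tested.

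Amino acid transporters outside the 10 were next counted. Of 47 other plasma membrane and lysosomal carriers, 21 could be tested, 11 had no read in any library, and 0 passed in either direction. Their log2 fold changes had a median of 0.10, with 15 above 0, and 4 had an unadjusted p under 0.05, as did 5.85% of all tested genes. Slc38a7, the lysosomal glutamine exporter SNAT7, had the smallest p, with 16.6, 17.0 and 14.98 CPM in BrmKO against 24.7, 24.1 and 23.7 CPM in WT. Every BrmKO library was below every WT library (log2 fold change -0.58 ± 0.12, edgeR adjusted p = 0.208), and with DESeq2 it passed (adjusted p = 0.0127). Slc6a6, the taurine transporter, had 107 ± 9.87 CPM in BrmKO and 86.9 ± 6.82 CPM in WT (0.30 ± 0.10, edgeR adjusted p = 0.674). Slc1a4, the ASCT1 exchanger of alanine and serine, had 5.57 ± 1.33 CPM in BrmKO and 2.98 ± 0.947 CPM in WT (0.90 ± 0.32, edgeR adjusted p = 0.706). Both were apart by genotype, as were 4 of the 21 in all and 11.1% of all tested genes.

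The rest of the amino acid pathway gave no call either. Of 11 mitochondrial amino acid carriers 9 were tested, with 0 past the threshold and a median log2 fold change of -0.05, and Sfxn2, of the sideroflexin family, had the smallest p (-0.25 ± 0.13, edgeR adjusted p = 0.902). Slc25a22, a glutamate carrier, and Slc25a12, an aspartate and glutamate carrier, followed at 0.15 ± 0.09 and 0.14 ± 0.09. Among 8 known regulators of these transporters 0 passed (median -0.11). The smallest p among them were those of Epas1, Mycn and Hif1a, hypoxia factors and a MYC relative, at -1.47 ± 0.68, -0.20 ± 0.10 and -0.19 ± 0.11 on the log2 scale. Myc, which drives Slc7a5 and Slc1a5 in growing cells, stood at 732, 781 and 679 CPM in BrmKO against 654, 678 and 670 CPM in WT (0.13 ± 0.09, edgeR adjusted p = 0.980).

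Of 20 ATF4 target genes 0 passed, with 10 above 0, 10 below and a median log2 fold change of 0.00. Vldlr, a lipoprotein receptor, had the smallest p (0.52 ± 0.18, edgeR adjusted p = 0.697). It lies on chromosome 19 at 27216484 to 27254231, near the inactivated Smarca2 at 26605050 to 26778322. The part of that position in its level was not tested. Next came Cth, an enzyme that makes cysteine (-1.10 ± 0.47), and Mthfd2, a mitochondrial folate enzyme (-0.16 ± 0.12). Asns, the asparagine synthetase that is a standard readout of amino acid shortage, had 42.8, 55.6 and 47.1 CPM in BrmKO against 39.5, 41.9 and 52.8 CPM in WT, with overlapping groups. Of 23 branched-chain amino acid catabolism genes 0 passed (median 0.05). Bcat2, the mitochondrial transaminase of the first step, lay at 94.6 to 108 CPM in BrmKO and 94.8 to 98.9 CPM in WT, and Bcat1, its cytosolic counterpart, at 1.66 to 3.55 CPM in BrmKO and 2.09 to 2.92 CPM in WT. Acat1, Acad8 and Aldh6a1, mitochondrial enzymes of later steps, ranked first by p in that list, at 0.15 ± 0.08, 0.16 ± 0.10 and -0.17 ± 0.11. Of 28 tested genes of mTORC1 amino acid sensing 0 passed (median 0.01), with Fnip2, Rraga and Rragb at 0.41 ± 0.20, -0.19 ± 0.11 and -0.18 ± 0.14, a folliculin partner and the Rag GTPases A and B.

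**Figure D5:**
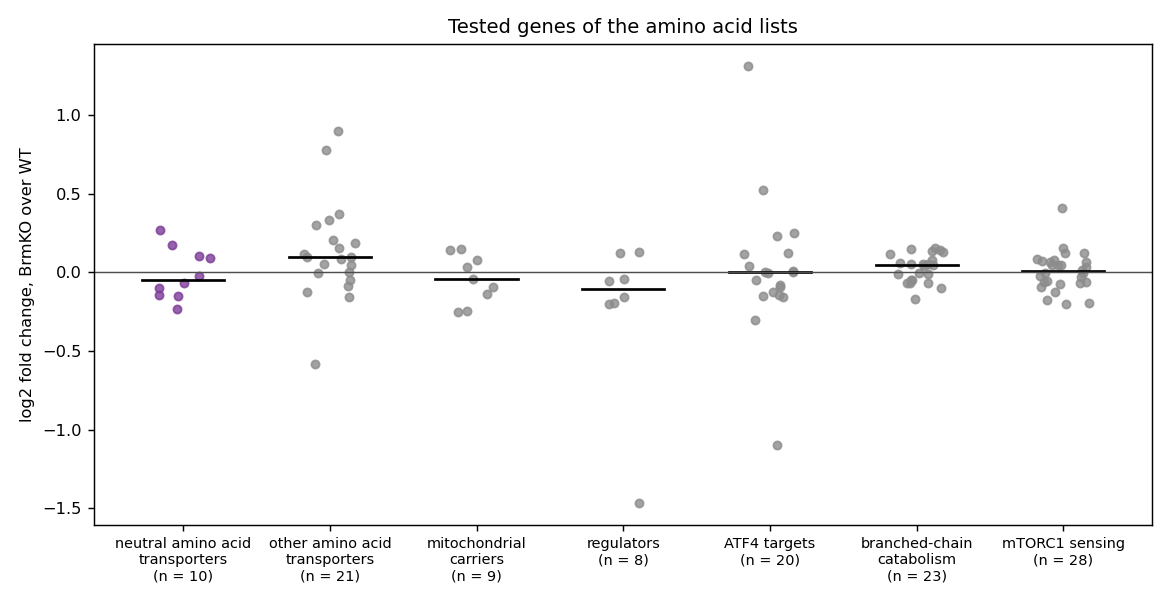
Log2 fold change, BrmKO over WT, of each tested gene of the transporter list (left) and of 6 related lists, with a line at the list median. The medians lie between -0.11 and 0.10, and no point passed the test.

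Markers of other marrow cells were set beside the LAT3 and LAT4 values. Of 10 erythroid markers 0 passed and 3 lay above 0 (median log2 fold change -0.10), with a summed level of 574 to 896 CPM in BrmKO and 630 to 987 CPM in WT. Of 8 monocyte and macrophage markers 0 passed and 7 lay below 0 (median -0.49), with a sum of 239 to 274 CPM in BrmKO and 275 to 365 CPM in WT, apart by genotype. Of 8 megakaryocyte markers all lay below 0 (median -0.66), with a sum of 435 to 611 CPM in BrmKO and 662 to 871 CPM in WT, and Pf4 fell to 105.5 ± 3.12 CPM in BrmKO, against 159.5 ± 10.6 CPM in WT (edgeR adjusted p = 0.0391, but over 0.05 with any 1 library left out). Of 10 stromal and endothelial markers 8 lay below 0 (median -1.30) and 0 passed, with a sum of 355 to 426 CPM in BrmKO and 359 to 551 CPM in WT. Its Pdgfra, a stromal receptor, had 0 reads in all 3 BrmKO libraries against 27, 19 and 21 reads in WT, and the median was the same with Pdgfra put at 3 reads over the BrmKO group. The sums of 8 B lineage, 8 T and NK cell and 8 neutrophil markers, of which 6, 5 and 6 were tested, were 62.0 to 77.1, 8.29 to 10.1 and 7.42 to 23.4 CPM in BrmKO and 71.0 to 82.8, 6.57 to 6.89 and 7.48 to 30.6 CPM in WT, with 0 past the threshold, and the T and NK cell sums were apart by genotype. The part of these cells in the transporter values was not tested.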

How the data were processed

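RNA from sorted LSK cells of 3 BrmKO and 3 WT mice was measured, 1 library per mouse. The authors deposited raw counts of reads for each Ensembl gene. Per the submitters' processing notes, bcl2fastq, FastQC, STAR, HTSeq, DESeq2 and the mouse build GRCm38 were used. For versions, annotation release and strand setting, the sources used here give nothing. The 5 rows that name no gene were left out of library sizes and tests (reads outside genes 5.79% to 9.29%, ambiguous 6.23% to 6.47%, not unique 4.38% to 5.27%, not aligned 1.99% to 2.48%). Since HTSeq drops reads that align to several places, counts of genes with copies are understated.

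Names, positions and lengths came from GENCODE M21, matched for 55227 of 55487 identifiers. BrmKO was compared with WT in edgeR 4.0.16 (R 4.3.3) by the quasi-likelihood test with robust dispersion, TMM factors and filterByExpr, and Benjamini-Hochberg adjustment over all tested genes at 0.05. CPM (counts scaled to library size) use TMM factors. Levels between genes are per kb of the union of annotated exons. Copies were searched with minimap2 2.31 (95% identity over 50% of the longest transcript). Promoter windows are RefSeq's (GRCm38.p6), found for 6 of the 10 genes. The test was tried on simulated counts with known changes, 50 genes at each size. It recovered 38% of 1.5-fold, 70% of 2-fold, 80% of 3-fold and 82% of 4-fold changes, and made 15 false calls. The changed genes were drawn at random from expressed genes at large, so these shares are not specific to the 10 transporter genes. Alternatives were DESeq2 1.42.0, its size factors in edgeR, limma 3.58.1 (voom), no filter, a replicate block, each library left out, and both replicates numbered 3 left out.

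The transporter genes and the other gene lists were chosen with earlier results of these data known. All 10 transporter genes are named. Of each other amino acid list up to 3 genes with the smallest p are named, and other names were added for their role with their values known. Of the marker lists, sums and defining markers are given. Replicate numbers do not pair the mice in the labels. Every pair of libraries differed by more than sampling noise, with chi-square over its degrees of freedom at least 14.3. Reads carry no molecular identifiers, so floors of 3 reads cover counting error only.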

Additional observations from a re-analysis of the deposited data

How the results depend on the processing

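The number of transporter genes past the threshold was 0 under all 12 alternatives, and 5 of the 120 recomputed log2 fold changes of these genes turned direction. With 1 library left out, Slc3a2 ranged from -0.136 to 0.067 and was above 0 when WT replicate 1 (0.067), WT replicate 2 (0.003) or BrmKO replicate 3 (0.066) was dropped. Slc25a44 ranged from -0.012 to 0.208 and was below 0 when WT replicate 1 was dropped. Slc7a8 was -0.096 without both libraries numbered 3. The cause was not tested. Slc43a1 ranged from 0.22 to 0.31 and Slc43a2 from -0.27 to -0.18. Over all genes, 22 passed, against 141 with DESeq2, 58 with no low-count filter and 6 to 36 with 1 library left out. The count of transporter genes at an unadjusted p under 0.05 was 2 and ranged from 1 to 3 with 1 library left out, with 3 without both libraries numbered 3 and 4 under the replicate block. With DESeq2, 1 other amino acid transporter, 3 megakaryocyte, 1 monocyte and 3 stromal markers passed. Of the stromal markers, 1 passed with limma-voom and 1 with no filter. Of the megakaryocyte markers, 1 passed, but 0 with any 1 library left out and 0 without both libraries numbered 3. Deviations of same-numbered libraries correlated at 0.05, 0.01 and 0.19, the last for both libraries numbered 3. Those were closer to each other (chi-square over its degrees of freedom 20.5) than to libraries of their own genotype (32.0 to 48.7). Such closeness was not particular to them, since WT replicate 2 and BrmKO replicate 1 stood at 20.1, with deviations correlated at 0.17. Numbers 1 and 2 shared no clear pairing. With the replicate block, 25 genes and 0 transporter genes passed. Per kb of the longest transcript in place of all exons, the mean over 6 libraries was 117 CPM for Slc1a5, 82.5 for Slc3a2, 57.1 for Slc38a2, 52.0 for Slc7a5, 32.1 for Slc38a1, 22.1 for Slc43a1, 17.7 for Slc7a6, 10.2 for Slc7a8 and 9.74 for Slc43a2. Depth did not limit the levels of these genes, which had at least 844 reads per library, and the SE of their log2 fold changes was 0.086 to 0.167, against a median of 0.163 over all tested genes.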

Other observations

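The sorted cells were also described by 12 LSK markers. None passed the test (0 of 12, edgeR), 3 had an unadjusted p under 0.05 (5.85% of all tested genes did), and the median log2 fold change was 0.06 with 7 above 0. Hoxa9, a homeobox factor of self-renewing progenitors, was 0.27 ± 0.09 on the log2 scale, BrmKO over WT (SE, edgeR adjusted p = 0.586). Every BrmKO library was above every WT library for Hoxa9, Hlf and Flt3. Groups were apart in these 3 of the 12, and in 11.1% of all tested genes. Hlf, a factor of stem cells, was 0.39 ± 0.14 (edgeR adjusted p = 0.706), and Tek, the angiopoietin receptor of stem and endothelial cells, was -0.45 ± 0.19 (edgeR adjusted p = 0.811). The summed level of the 10 transporter genes was 1693, 1619 and 1507 CPM in BrmKO libraries against 1763, 1734 and 1516 CPM in WT libraries, with overlapping groups.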
